A study of Mus musculus with 18 samples.

Results

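YAP (gene *Yap1*), TAZ (*Wwtr1*), the TEAD DNA-binding factors and a set of their target genes were followed as 10 members: *Yap1*, *Wwtr1*, *Tead1*, *Tead3*, *Vgll3*, *Ccn1* (also *Cyr61*), *Ccn2* (also *Ctgf*), *Ankrd1*, *Lats2* and *Amotl2*. They were chosen with earlier results of these data known. Their rows were taken by symbol, as those of each count table whose Entrez identifier maps to that symbol. Among the 24100 gene rows of both tables, 10 of 10 were found. All 10 had enough reads to enter the tests in both kinds of library.

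RNA came from C3H/10T1/2 cells, an established mouse line of mesenchymal progenitors, grown without differentiation cues. The lines compared were *Atrx* WT, an isogenic line that had received the Cas9 vector without a guide, and the *Atrx* KO clones sg5 and sg6, each a single clone made with a different guide against *Atrx*. Each line had 3 polyA-selected and 3 rRNA-depleted libraries, 18 in all. With 1 clone per guide, n = 3 counts libraries of 1 line, so p-values measure the spread between those libraries, which may be technical, and what else differs between the lines cannot be told apart from *Atrx* loss. Both clones were compared with the same WT libraries.

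YAP and TAZ are transcriptional co-activators without a DNA-binding domain of their own. Of the Hippo kinases MST1/2 and LATS1/2, it is LATS1/2 that phosphorylate them and keep them in the cytoplasm. When not phosphorylated they enter the nucleus and switch on genes through TEAD factors. In mesenchymal cells this switch follows matrix stiffness, cell spreading and the actin cytoskeleton, so the activity of YAP and TAZ is usually regulated at the protein level, which these libraries do not measure. *Ccn1*, *Ccn2* and *Ankrd1* are the transcripts most often read as its output, and *Lats2* and *Amotl2* are targets that restrain it in return.

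Promoter windows of 300 bases, from 250 before to 50 after each annotated start, were taken from RefSeq (GRCm38.p6) to show where the letters bound by TEAD lie in the members. A window was held for 8 of the 10 members, 12 windows in all. There was none for *Tead1* and *Ccn2*. The TEAD hexamer GGAATG, searched on both strands, was in at least 1 window of 8 of the 8 members, and 16.6% of all 27025 genes with a window held it. The 3 windows below belong to the members that moved against WT and had a window. Capitals mark the hexamer, or its reverse complement CATTCC, and each runs 5′ to 3′ on the strand of the gene. They cover chr3:145649936-145650235 (*Ccn1*), chr19:36119795-36120094 (*Ankrd1*) and chr14:57746074-57746373 (*Lats2*), all on the minus strand. *Lats2* had another window, chr14:57734369-57734668, which did not hold the hexamer and is not printed.
Ccn1: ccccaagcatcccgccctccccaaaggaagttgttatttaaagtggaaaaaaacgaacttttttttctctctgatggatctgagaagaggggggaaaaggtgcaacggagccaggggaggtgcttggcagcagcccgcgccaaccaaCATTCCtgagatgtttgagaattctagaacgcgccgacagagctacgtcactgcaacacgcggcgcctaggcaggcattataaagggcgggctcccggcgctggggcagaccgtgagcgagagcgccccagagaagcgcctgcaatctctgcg
Ankrd1: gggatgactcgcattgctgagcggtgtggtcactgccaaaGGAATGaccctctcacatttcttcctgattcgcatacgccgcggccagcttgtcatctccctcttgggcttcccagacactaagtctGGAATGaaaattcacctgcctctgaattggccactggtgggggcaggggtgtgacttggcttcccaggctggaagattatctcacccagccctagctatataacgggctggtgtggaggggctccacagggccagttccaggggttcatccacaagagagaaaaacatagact
Lats2: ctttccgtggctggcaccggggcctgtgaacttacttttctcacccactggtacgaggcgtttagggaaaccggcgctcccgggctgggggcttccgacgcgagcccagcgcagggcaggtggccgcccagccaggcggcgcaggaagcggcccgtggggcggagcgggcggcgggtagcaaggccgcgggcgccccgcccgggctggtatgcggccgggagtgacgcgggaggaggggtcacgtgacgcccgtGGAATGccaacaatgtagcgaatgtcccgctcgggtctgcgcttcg
The hexamer lay from base -103 to -98 before the start of *Ccn1*, at -210 to -205 and again at -123 to -118 before *Ankrd1*, and just inside the transcript of *Lats2*, at +5 to +10. *Ankrd1* and 1 window of *Tead3* held it at least 2 times, as did 1.36% of all 32851 windows. The letters of the AP-1 site (TGANTCA, both strands) were in 0 of the 12 windows, against 7.81% of all windows. The CArG box, the site of serum response factor, was also in 0 of 12, against 1.63%. Motif searches of this kind describe letters in a window, not binding.

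**Figure D1:**
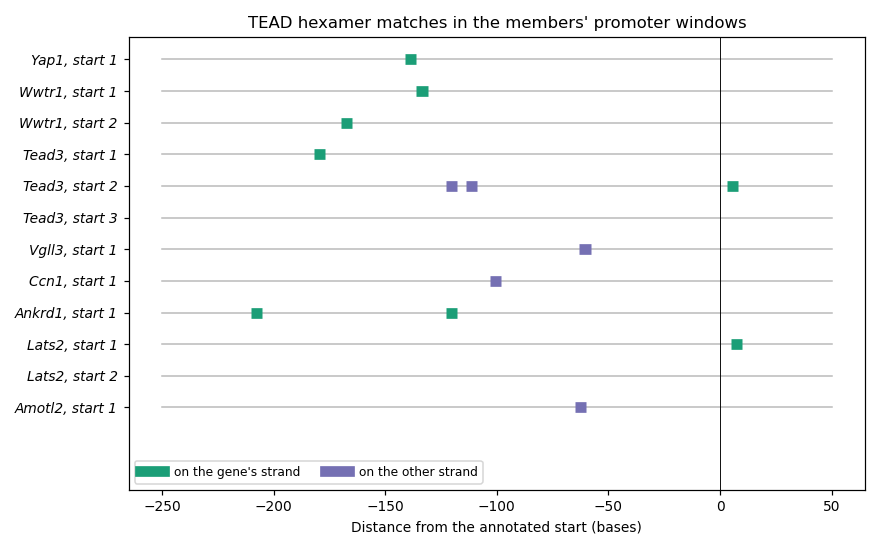
Each line is a promoter window of a member, from 250 bases before to 50 after an annotated start (horizontal axis, bases), and each block is a match to the TEAD hexamer, green on the strand of the gene and purple on the other strand. Of the 12 windows 10 hold a match, and *Ankrd1* is the member with matches at -210 and -123.

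The knocked-out gene was checked first. Levels are given as CPM, the counts of a library divided by its TMM-scaled total. In the polyA libraries *Atrx* lay at 276 to 328 CPM among WT libraries, at 114 to 138 among those of sg5 and at 122 to 141 among those of sg6. The groups did not overlap with WT in either kind of library. Total counts were 27544833 to 80772108 in WT polyA libraries, 161036799 to 235346363 in sg5 and 58918732 to 71896907 in sg6, so that sg5 was sequenced most deeply. They were 20135336 to 33187136 in the rRNA-depleted libraries, of which 84.5% to 89.6% fell on genes. Of 10 mesenchymal markers, 9 averaged at least 1 CPM in every line of both kinds. The exception was *Thy1*. In the polyA libraries 1 of these markers rose and 3 fell in sg5, and 6 rose and 2 fell in sg6 (edgeR). Of all genes 27.0% and 30.7% passed there. *Pdgfrb* was higher and *Pdgfra* and *Twist2* were lower in both clones. In the rRNA-depleted libraries 0 of the 10 passed in sg5 and 1 rose in sg6, where 10.7% and 7.58% of all genes passed. The summed polyA level of the 10 markers per library was 20389 to 23282 CPM for WT, against 23168 to 23701 for sg5 and 27901 to 30695 for sg6. The 5 epithelial markers summed to 2.89 to 6.11 CPM per WT polyA library, against 0.840 to 1.62 for sg5 and 0.325 to 0.723 for sg6, with *Cdh1* and *Krt14* lower in both clones in both kinds of library. The 4 endothelial markers summed to at most 1.57 CPM and the 5 blood markers to at most 5.23 CPM in any library, and the endothelial *Pecam1* was lower in both clones in polyA, at 0.136 and 0.152 CPM against 0.340. The part of these marker levels in the results below was not tested.

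The transcripts of the co-activators did not pass the test without a replicate block in either clone. *Yap1* (chr9:7931999-8004596, minus strand) had 134, 129 and 129 CPM in the 3 WT polyA libraries, 131, 136 and 134 in sg5, and 127, 119 and 130 in sg6. The means were 130.4, 134 and 125, and both clones overlapped WT. The log2 fold change against WT was 0.03 (SE 0.06) in sg5 and -0.06 (SE 0.06) in sg6, with adjusted p = 0.742 and 0.534 by edgeR's quasi-likelihood test, Benjamini-Hochberg adjusted over all genes. In these bulk libraries, fewer cells that express a gene and less of its RNA per cell cannot be told apart. *Wwtr1* (chr3:57455649-57575910, minus strand), which encodes TAZ, had 104, 89.8 and 92.8 CPM in WT, 117, 104 and 99.4 in sg5, and 119, 110 and 102 in sg6. The log2 fold changes were 0.16 (SE 0.09) and 0.21 (SE 0.09), and neither passed the edgeR test (adjusted p = 0.236 and 0.125). In rRNA-depleted RNA *Yap1* changed by 0.12 (SE 0.16) and -0.12 (SE 0.16) and *Wwtr1* by 0.27 (SE 0.14) and 0.30 (SE 0.14) on the log2 scale. The *Wwtr1* libraries of both clones lay above those of WT there, at 71.3 to 83.2 CPM in sg5 and 73.3 to 83.3 in sg6 against 60.3 to 69.3, without passing the test (adjusted p = 0.355 and 0.381).

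Of the DNA-binding partners, *Tead1* rose in both clones and *Tead3* did not pass the test. *Tead1* (chr7:112679318-112906807, plus strand) had 235, 250.9 and 240 CPM in the WT polyA libraries. It had 306, 306 and 290 in sg5 and 348, 346 and 325 in sg6. Every clone library was above every WT library, and the sg6 libraries were above those of sg5. The log2 fold change was 0.31 (SE 0.07) in sg5 and 0.49 (SE 0.07) in sg6, 1.24- and 1.40-fold, with edgeR adjusted p = 0.00952 and 0.000827. In rRNA-depleted RNA *Tead1* had 42.4, 68.7 and 54.5 CPM in WT, 74.5, 135 and 80.6 in sg5 and 75.6, 76.95 and 92.5 in sg6. Here too no clone library overlapped WT, but the spread was wider and the log2 fold changes of 0.81 (SE 0.23) and 0.57 (SE 0.23) did not pass (edgeR adjusted p = 0.0720 and 0.302). Without replicate 1 of sg5 it passed in sg5, at 1.002 with adjusted p = 0.0203.

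*Tead3* (chr17:28331671-28350817, minus strand) had 18.4, 19.2 and 31.05 CPM in WT polyA libraries, 27.5, 23.9 and 26.1 in sg5, and 25.0, 26.5 and 25.9 in sg6. One WT library, replicate 3, was higher than all 6 clone libraries, and without it the log2 fold changes went from 0.17 in both clones to 0.46 (edgeR adjusted p = 0.00881 in sg5 and 0.00734 in sg6). *Vgll3* (chr16:65815257-65866368, plus strand), a cofactor that competes with YAP and TAZ for TEAD, had 132, 86.7 and 61.4 CPM in WT, 149, 166 and 115 in sg5, and 167, 138 and 86.3 in sg6. The groups overlapped, and the log2 fold changes of 0.62 (SE 0.30) and 0.48 (SE 0.30) did not pass (edgeR adjusted p = 0.161 and 0.262). Without replicate 1 of WT, the highest of its group, *Vgll3* passed in sg5 at 0.96 (adjusted p = 0.0358). In rRNA-depleted RNA *Tead3* stayed between 3.95 and 7.08 CPM and *Vgll3* between 73.3 and 192 CPM in the 9 libraries, and neither passed the test in either clone.

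The 3 classical output genes split in direction. *Ccn1* (chr3:145646976-145649981, minus strand) and *Ccn2* (chr10:24595442-24598683, plus strand) encode matricellular proteins secreted into the matrix. *Ankrd1* (chr19:36111961-36120099, minus strand) encodes an ankyrin repeat protein that is found at the sarcomere and in the nucleus. *Ccn2* had 54.5, 33.2 and 26.2 CPM in the WT polyA libraries, 254, 335 and 191 in sg5, and 405, 216 and 116 in sg6. The lowest clone library lay above the highest WT library, although the 3 sg6 libraries spread widely. It rose 6.87-fold in sg5 (log2 fold change 2.78, SE 0.46) and 6.49-fold in sg6 (2.70, SE 0.46), with edgeR adjusted p = 0.00236 and 0.00221.

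*Ccn1* had 321, 266 and 341 CPM in WT, 498, 633 and 625 in sg5, and 548, 510.1 and 502 in sg6. Each clone library was again above each WT library. The rise was 1.89-fold in sg5 (log2 fold change 0.92, SE 0.12) and 1.68-fold in sg6 (0.75, SE 0.12), with edgeR adjusted p = 0.000741 and 0.00183.

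*Ankrd1* went the other way. It had 12.4, 8.64 and 5.25 CPM in WT, 0.802, 0.728 and 0.450 in sg5, and 2.40, 1.56 and 0.994 in sg6. The 3 lines did not overlap, with sg5 lowest, sg6 next and WT highest. It fell 13.2-fold in sg5 (log2 fold change -3.72, SE 0.42) and 5.26-fold in sg6 (-2.40, SE 0.40), with edgeR adjusted p = 0.000288 and 0.00204. The direct comparison of sg5 with sg6 gave -1.32 (SE 0.40), with edgeR adjusted p = 0.112. With the replicate number as a block it was -1.28 with adjusted p = 0.00226, and the same-numbered libraries of the clones deviated together.

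In the rRNA-depleted libraries the log2 fold changes of the same 3 genes had the same signs, with wider spread. *Ccn2* had 46.7, 91.3 and 37.8 CPM in WT, 50.2, 320 and 245 in sg5, and 88.4, 355 and 138 in sg6. Replicate 1 of each clone overlapped WT, while the other 4 clone libraries were above it. The log2 fold changes of 1.81 (SE 0.59) and 1.72 (SE 0.59) did not pass in edgeR (adjusted p = 0.120 and 0.187). Same-numbered sg6 and WT libraries correlated at 0.114 to 0.544, with 4 of 6 best with their own number, so the pairing was partial. With the replicate number as a block, *Ccn2* in sg6 gave 1.52 with adjusted p = 0.0262 in edgeR. Without replicate 1 of sg5 the log2 fold change was 2.30 in sg5 (adjusted p = 0.00537) and 1.77 in sg6 (adjusted p = 0.0192). Set number by number, the sg5 library held 1.08, 3.50 and 6.47 times the *Ccn2* CPM of the WT library, and that of sg6 1.89, 3.88 and 3.64 times. In polyA these ratios were 4.67, 10.1 and 7.29 for sg5 and 7.43, 6.50 and 4.41 for sg6.

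*Ankrd1* had 10.1, 24.3 and 9.08 CPM in these WT libraries, 0, 1.06 and 1.20 in sg5, and 0.689, 10.2 and 2.28 in sg6. The count of 0 in replicate 1 of sg5 allows up to 0.115 CPM, the level of 3 reads. The sg5 libraries were all below WT, and replicate 2 of sg6 overlapped it. The log2 fold change was -4.29 (SE 0.95) in sg5, a 19.6-fold fall (edgeR adjusted p = 0.0207), and -1.71 (SE 0.80) in sg6 (adjusted p = 0.402). The replicate block gave -2.19 in sg6 with adjusted p = 0.0355, and the fit without replicate 2 of sg6 gave -3.27 (adjusted p = 0.0405). In sg5 the call was lost without replicate 2 of WT (adjusted p = 0.0722). *Ccn1* rose 1.56-fold in sg5 (log2 fold change 0.64, SE 0.15, edgeR adjusted p = 0.0314), with 567, 703 and 511 CPM against 414, 391 and 335 in WT. That call held in 4 of 9 fits without 1 library, and was lost without replicate 2 or 3 of WT, replicate 2 of sg5, or replicate 2 or 3 of sg6 (adjusted p up to 0.181). In sg6 it had 532, 465 and 436 CPM, above the WT libraries but short of the threshold (0.33, SE 0.15, adjusted p = 0.394).

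**Figure D2:**
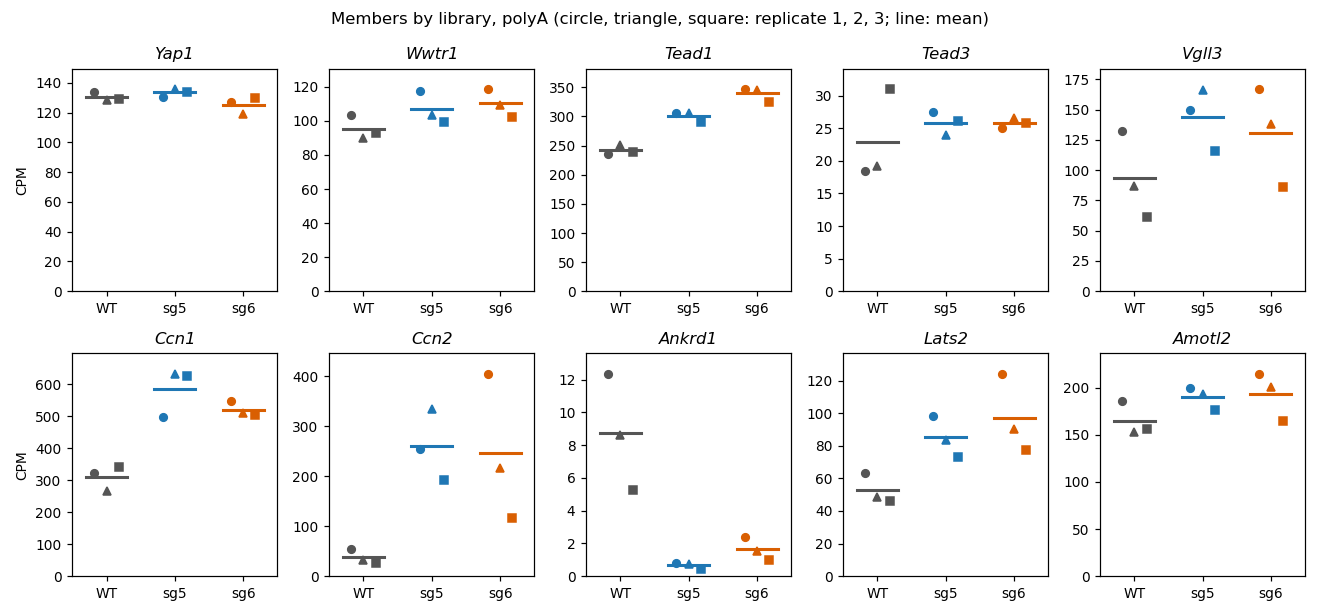
Each panel is a member in the polyA libraries, with CPM on the vertical axis from 0 and the lines WT, sg5 and sg6 on the horizontal axis. Symbols are the 3 libraries of a line and bars their mean. For *Ccn2* the WT libraries lie at 26.2 to 54.5 and the clones at 116 to 405, for *Ankrd1* WT lies at 5.25 to 12.4 and the clones at 0.450 to 2.40.

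**Figure D3:**
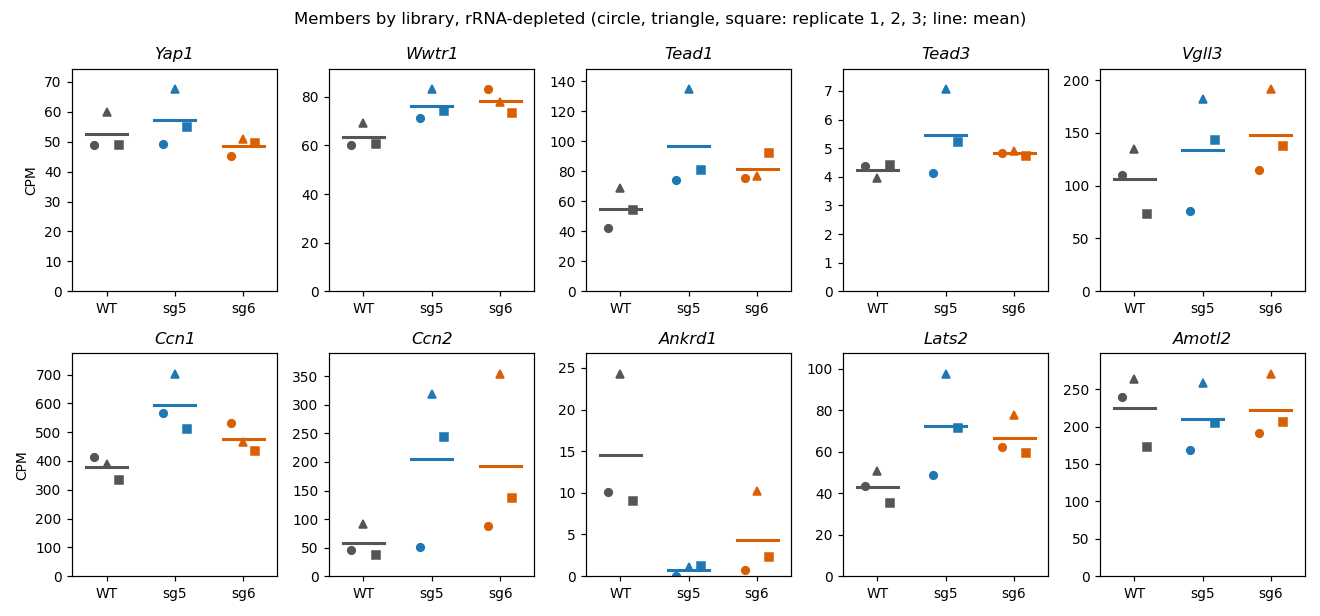
The same panels for the rRNA-depleted libraries, with CPM on the vertical axis, the 3 lines on the horizontal axis, a symbol per library and a bar for the mean. For *Ccn2* replicate 1 (circle) of sg5 lies at 50.2 and that of sg6 at 88.4, inside the WT range of 37.8 to 91.3.

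The 2 targets that act back on the pathway behaved differently from each other. *Lats2* (chr14:57689662-57758388, minus strand), the kinase that phosphorylates YAP and TAZ, had 63.5, 48.6 and 46.4 CPM in WT polyA libraries, 98.5, 83.5 and 73.3 in sg5, and 124, 90.2 and 77.1 in sg6. All clone libraries were above all WT libraries. It rose 1.61-fold in sg5 (log2 fold change 0.69, SE 0.19, edgeR adjusted p = 0.0271) and 1.84-fold in sg6 (0.88, SE 0.19, adjusted p = 0.00810). The call in sg5 did not hold in 4 of 9 fits that left out 1 library (without replicate 2 or 3 of WT, or replicate 1 or 2 of sg5). In rRNA-depleted RNA it had 43.6, 50.5 and 35.1 CPM in WT, 48.8, 97.7 and 71.3 in sg5, and 62.3, 77.9 and 59.4 in sg6. The log2 fold changes of 0.75 (SE 0.23) and 0.63 (SE 0.23) did not pass (edgeR adjusted p = 0.0932 and 0.226), and sg5 passed without its replicate 1, which overlapped WT (1.003, adjusted p = 0.0108). *Lats2* shares 41.8% of its 31-base words with other genes, mainly *Gm49361*, an overlapping gene model on the same strand, and *Ccn2* shares 19.7% with other genes, mainly *Gm15270* on the opposite strand, so reads could be divided between them.

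*Amotl2* (chr9:102716672-102733418, plus strand), whose protein angiomotin-like 2 holds YAP at cell junctions, had 186, 153 and 156 CPM in WT, 200.3, 193 and 177 in sg5, and 215, 201 and 165 in sg6. The groups overlapped, and the log2 fold changes of 0.20 (SE 0.12) and 0.23 (SE 0.12) did not pass (edgeR adjusted p = 0.235 and 0.177). In rRNA-depleted RNA, with 173 to 264 CPM in WT and 168 to 271 in the clones, they were -0.10 (SE 0.20) and -0.02 (SE 0.20).

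Counted together, 4 members rose in sg5 in the polyA libraries (*Tead1*, *Ccn1*, *Ccn2*, *Lats2*), 1 fell (*Ankrd1*) and 5 did not pass. Over all 15480 genes tested, 27.0% passed in that comparison, 13.6% higher and 13.4% lower. In sg6 the counts were again 4, 1 and 5, of the same genes, against 30.7% of all genes, 16.1% higher and 14.6% lower. With the further demand of a change beyond 2-fold that the study used, 1 member rose (*Ccn2*) and 1 fell (*Ankrd1*) in each clone. Of all genes, 3.18% rose and 6.96% fell past it in sg5 (10.1% in all), and 3.64% rose and 7.54% fell in sg6 (11.2% in all). The members' median log2 fold change was 0.26 in sg5 and 0.36 in sg6, and that of all genes -0.002 and -0.006. Since the members were chosen with earlier results of these data known, their counts and medians beside all genes carry that choice. Libraries did not overlap with WT for 5 of 10 members in each clone, and for 41.5% (sg5) and 42.4% (sg6) of all genes.

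In the rRNA-depleted libraries 2 members passed in sg5, *Ccn1* higher and *Ankrd1* lower, against 10.7% of 13303 genes, 5.64% higher and 5.10% lower. Without 1 library this count of 2 ranged from 0 (without replicate 2 of WT) to 5 (without replicate 1 of sg5), and it was 1 without replicate 3 of WT, replicate 2 of sg5, or replicate 2 or 3 of sg6. Beyond 2-fold *Ankrd1* alone passed, where 7.35% of genes did, 4.31% lower, and without 1 library that count ranged from 0 to 4. In sg6 edgeR passed 0 members, against 7.58% of genes, and beyond 2-fold also 0, against 5.75%. At an unadjusted p below 0.05 there were 5 of 10, where 24.3% of all genes were. DESeq2 also passed 0, and the edgeR count was 1 without replicate 1 of sg5 or replicate 2 of sg6. The replicate block passed 2 in sg6, *Ccn2* higher and *Ankrd1* lower, against 13.0% of all genes. The medians of the members were 0.35 and 0.32, those of all genes 0.08 and 0.04. Libraries did not overlap with WT for 4 of 10 members in sg5 and 5 of 10 in sg6, and for 36.3% and 31.3% of all genes.

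**Figure D4:**
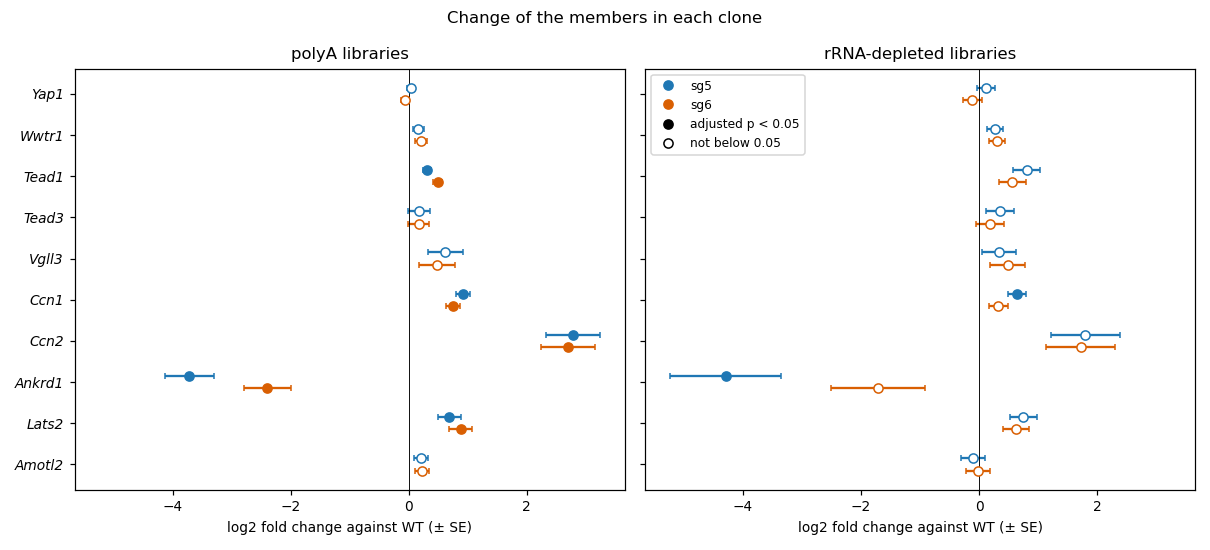
Log2 fold change against WT with its standard error (horizontal axis) for each member, sg5 in blue and sg6 in orange, polyA libraries on the left and rRNA-depleted on the right. Filled points have an adjusted p below 0.05 in edgeR. *Ccn2* reaches 2.78 and *Ankrd1* -3.72 in sg5 in the polyA libraries, and most open points of the right panel have wider bars.

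Between the clones themselves, 0 members passed in edgeR in the polyA libraries, where 4.79% of all genes did and 2.61% beyond 2-fold. At an unadjusted p below 0.05 there were 2 of 10, *Ankrd1* and *Tead1*, a share near the 17.0% of all genes at that threshold, and DESeq2 passed 1 (*Ankrd1*). The members' differences of sg5 against sg6 ran from -1.32 (*Ankrd1*) to 0.17 (*Ccn1*) on the log2 scale. For *Ccn2* the difference was 0.08 with an SE of 0.43. In the rRNA-depleted libraries edgeR and DESeq2 passed 0, where 1.57% of genes passed in edgeR and 1.48% beyond 2-fold. At an unadjusted p below 0.05 there was 1 member (*Ankrd1*) of 10, against 13.5% of all genes.

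Levels per kilobase of exon, over all annotated exons of a gene, allow a rough comparison between genes. On this scale *Ccn1* was the most abundant member in WT polyA libraries at 153 CPM per kilobase. It was followed by *Amotl2* (26.3), *Wwtr1* (20.0), *Tead1* (17.8), *Yap1* (14.1), *Ccn2* (13.3), *Vgll3* (13.2), *Lats2* (7.58), *Tead3* (3.41) and *Ankrd1* (3.03). Neighbours in this order overlapped from *Yap1* through *Ccn2* and *Vgll3* to *Lats2*, and again for *Tead3* and *Ankrd1*. The wide ranges of *Ccn2* (9.16 to 19.1) and *Vgll3* (8.64 to 18.6) also overlapped that of *Tead1* (17.3 to 18.5), and that of *Ccn2* the range of *Wwtr1* (18.8 to 21.7). In sg5 *Ccn2* stood second at 91.0 CPM per kilobase, with each of its libraries above every *Amotl2* library (66.9 to 117 against 28.1 to 31.8), and *Ankrd1* was last at 0.229. In sg6 *Ccn2* was again second at 85.8. The order by mean differed in WT rRNA-depleted libraries. There *Ccn1* (188) and *Amotl2* (35.9) led, *Ccn2* (20.5) came next, and *Tead1* (4.07) stood below *Ankrd1* (5.02). The ranges of *Ccn2* and *Amotl2* overlapped, as did those of *Tead1* and *Ankrd1*. In the polyA libraries the members also differed in how much the 3 libraries of 1 line varied. The coefficient of variation of *Yap1* was 2.15%, 2.00% and 4.28% in WT, sg5 and sg6, and that of *Tead1* 3.32%, 3.02% and 3.64%. *Ccn2* varied by 38.8%, 27.7% and 59.8% and *Ankrd1* by 40.7%, 28.1% and 42.8%.

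The upstream Hippo pathway was read with a list of 23 other genes, the kinases, their scaffolds and the membrane proteins that regulate them. In the polyA libraries 8 rose and 4 fell in sg5, and 8 rose and 3 fell in sg6, of 23 tested, with medians of 0.01 and 0.04, where 27.0% and 30.7% of all genes passed. Of the core kinases, *Stk4* (MST1) rose by 0.39 (SE 0.07) and 0.32 (SE 0.07) on the log2 scale (edgeR adjusted p = 0.00447 and 0.00995), and both calls held in 9 of 9 fits without 1 library. *Sav1*, the scaffold of the MST kinases, rose by 0.47 and 0.55 (edgeR adjusted p = 0.0430 and 0.0208). In sg5 that call was kept in 1 of 9 such fits (without replicate 1 of WT), and in sg6 it was lost without replicate 2 of WT or replicate 1 or 2 of sg6. *Nf2*, of the same list, fell by 0.31 in both clones (edgeR adjusted p = 0.00773 and 0.00651). In rRNA-depleted RNA it did not pass, at -0.31 and -0.15. *Stk4*, *Sav1* and *Nf2* were named after their values were seen. *Stk3* (MST2), *Lats1*, *Mob1a* and *Mob1b* did not pass in either clone, at -0.03, 0.01, 0.05 and 0.17 in sg5. Both clones passed in the same direction for 11 genes, 8 higher and 3 lower. *Wwc1*, which encodes the upstream activator KIBRA, averaged 2.59 ± 1.27 CPM (SD, n = 3) in WT, with sg5 at 14.1 ± 2.11 and sg6 at 10.3 ± 3.59, a log2 fold change of 2.48 (SE 0.35) and 2.03 (SE 0.35), with edgeR adjusted p = 0.00104 and 0.00240. *Fat1*, a giant protocadherin upstream of the kinases, rose from 278 ± 101 CPM to 929 ± 258 and 894 ± 301, or 1.74 and 1.69 on the log2 scale. The related *Fat4* did not pass, at 0.01 and 0.12.

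*Dchs1*, the cadherin that binds FAT4, fell by 3.20 and 2.92 on the log2 scale from 1.34 ± 1.13 CPM in WT. Its WT libraries had 5, 124 and 109 reads, and the first of them was within the sg6 range. *Wwc2*, a relative of *Wwc1*, rose by 0.68 and 0.69, and *Ajuba*, which inhibits LATS, rose by 0.62 and 0.59. *Amot*, which like *Amotl2* binds YAP, fell by 0.61 and 0.54. In rRNA-depleted RNA 22 of the 23 were tested. Of these 4 rose in sg5 and 1 in sg6, where 10.7% and 7.58% of all genes passed. Under the replicate block 3 rose and 1 fell in sg6, where 13.0% of all genes passed. *Stk4* passed in sg5 at 0.61 (edgeR adjusted p = 0.0225), a call lost without replicate 2 or 3 of WT, replicate 2 or 3 of sg5 or replicate 3 of sg6, and did not pass in sg6 (0.32, adjusted p = 0.340). *Wwc1* passed in both, at 2.44 (SE 0.38) and 1.67 (SE 0.38), with edgeR adjusted p = 0.00218 and 0.0282, and *Fat1* in sg5 at 1.73 (adjusted p = 0.0143). The *Wwc1* call in sg6 was lost without replicate 1 or 3 of WT or replicate 2 of sg6, and that of *Fat1* without replicate 1 or 3 of WT. The count in sg5 ranged from 1 to 4 and that in sg6 from 0 to 3 when 1 library was left out.

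Among 5 other TEAD factors and TEAD cofactors, *Vgll1* and *Vgll2* were at or near 0 reads and were not tested. *Tead2* and *Tead4* did not pass in either clone without a replicate block. Under the block in polyA of sg6, *Tead4* rose by 0.40 and *Tead2* fell by 0.45 (edgeR adjusted p = 0.0164 and 0.0246). Neither passed under it in polyA of sg5. Not all same-numbered correlations of either clone with WT were above 0.1 in polyA. *Vgll4*, a cofactor that represses TEAD targets, fell by 0.53 (SE 0.15) and 0.49 (SE 0.15) on the log2 scale in the polyA libraries (edgeR adjusted p = 0.0304 and 0.0383). That call was lost without replicate 1 or 2 of sg5 in sg5 and in 5 of 9 such fits in sg6, namely without replicate 3 of WT, replicate 2 of sg5 or any 1 replicate of sg6. It did not pass in rRNA-depleted RNA (0.09 and -0.25), where edgeR passed 0 of the 3 tested in either clone, with 0 in sg5 and 1 in sg6 at an unadjusted p below 0.05, against 32.4% and 24.3% of all genes. Under the replicate block 1 of them fell in sg6, *Tead2*, where 13.0% of all genes passed.

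A second list held 17 further genes often described as YAP or TAZ targets. In the polyA libraries 5 rose and 1 fell in each clone, and 11 did not pass, with medians of 0.11 and 0.23. These 6 of 17 stand beside 27.0% and 30.7% of all genes, which is near the same share. *Fjx1*, the four-jointed box protein of the Fat and Dachsous pathway, had the largest rise of the list, with WT at 0.251 ± 0.0143 CPM, sg5 at 1.97 ± 0.859 and sg6 at 4.33 ± 0.424 (log2 fold change 2.97, SE 0.34, and 4.11, SE 0.34, edgeR adjusted p = 0.000312 and 4.70e-05). *Ccdc80*, a secreted matrix protein, rose from 131 ± 20.9 CPM to 410 ± 110 and 583 ± 266, or by 1.65 and 2.16. *Crim1*, a membrane protein that binds bone morphogenetic proteins, rose by 0.41 and 0.62. *Ptpn14*, a phosphatase that itself restrains YAP and also stands in the upstream list, rose by 0.39 and 0.41. The *Crim1* call in sg5 was lost without replicate 2 or 3 of WT or replicate 1 of sg5. That of *Ptpn14* was lost without replicate 2 or 3 of WT in both clones, and without replicate 1 or 3 of sg5 or replicate 2 or 3 of sg6 in the clone concerned. *F3*, the coagulation receptor tissue factor, fell by 0.56 and 1.04. The receptor kinase *Axl*, often used as a target in tumour lines, did not pass at -0.13 and 0.06, nor did *Myof* at 0.16 and 0.23. *Rbms3* passed in sg5 alone at 1.19 and *Asap1* in sg6 alone at 0.42, both named after their values were seen.

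In rRNA-depleted RNA 16 of these 17 were tested. In sg5 2 rose, *Ccdc80* at 2.18 (SE 0.28, edgeR adjusted p = 0.000461) and *Rbms3* at 1.53 (adjusted p = 0.000461). In sg6 2 rose, *Ccdc80* at 1.82 (adjusted p = 0.00194) and *Fjx1* at 2.81 (adjusted p = 0.0136), and *F3* fell by 0.76 (adjusted p = 0.0202). Of all genes 10.7% passed in sg5 and 7.58% in sg6. The replicate block added *Igfbp3* in sg6, at 2.19 with adjusted p = 0.0455 against 0.0851 without it, a gene that averaged 0.213 CPM in WT and 0.985 in sg6. In sg6 the *Fjx1* call was lost without replicate 2 or 3 of WT, and the *F3* call without replicate 1 or 3 of WT, replicate 2 of sg5 or any 1 replicate of sg6. When 1 library was left out, the count of genes passing ranged from 2 to 5 in sg5 and from 1 to 3 in sg6.

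**Figure D5:**
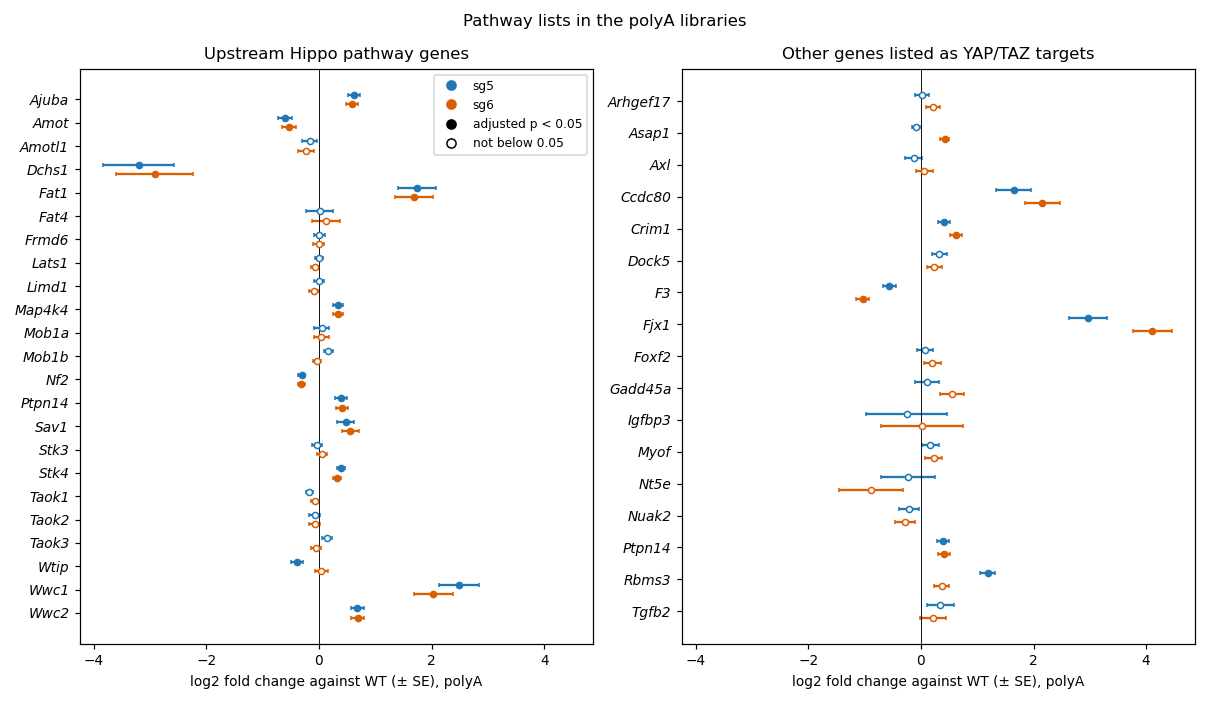
Log2 fold change against WT with its standard error in the polyA libraries (horizontal axis) for the 23 upstream genes on the left and the 17 further targets on the right, sg5 in blue and sg6 in orange, filled where the adjusted p was below 0.05 in edgeR. *Wwc1* and *Fat1* stand to the right and *Dchs1* to the left of an otherwise narrow upstream list, and *Fjx1* and *Ccdc80* lead the targets.

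*Ccn3* to *Ccn6* encode the other matricellular proteins of the family of *Ccn1* and *Ccn2*. Their median log2 fold change in the polyA libraries was -0.08 in sg5 and 0.22 in sg6. In sg5 0 of the 4 passed in edgeR, with 1 at an unadjusted p below 0.05 against 38.9% of all genes, and DESeq2 passed *Ccn6*. In sg6 *Ccn5* rose by 1.43 (SE 0.46, edgeR adjusted p = 0.0448), a call kept in 2 of 9 fits without 1 library (those without replicate 1 of WT or replicate 3 of sg6), and *Ccn6* fell by 1.40 (adjusted p = 0.00605). *Ccn3* differed by kind of library, at 0.21 (SE 0.41) in polyA and -2.00 (SE 0.36, edgeR adjusted p = 0.00545) in rRNA-depleted RNA of sg5, and these genes were named after their values were seen. In rRNA-depleted RNA of sg6 0 of 3 passed in edgeR, where 7.58% of all genes did. There was 1 at an unadjusted p below 0.05, against 24.3% of all genes. Under the replicate block *Ccn3* fell, where 13.0% of all genes passed. The difference between kinds was not tested, since the libraries were prepared and counted separately.

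The genes whose polyA profile was most like that of *Ccn2* were found by the root mean square difference of mean-centred log2 CPM over the 9 polyA libraries, among 11519 genes. They were *Wwc1* (0.34), *Thbs1* (0.35) and *Adcy1* (0.36), where the median gene was at 1.37. Over the 9 rRNA-depleted libraries, which were not used to choose them, the same distances were 0.61, 0.65 and 0.68, where the median of 11370 genes was 1.15. Those libraries are of the same lines, so the distances there are not an independent check. For *Yap1* the nearest genes were *Cdc5l* (0.03), *Cmtr1* (0.04) and *Polr2m* (0.04) against a median of 0.21, and they lay at 0.16, 0.24 and 0.19 in rRNA-depleted RNA against a median of 0.30.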

How the data were processed

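PolyA-selected and rRNA-depleted RNA of *Atrx* WT, sg5 and sg6 cells was sequenced in 18 libraries, and groups and replicate numbers were taken from the labels. For the polyA libraries the authors deposited expected counts per gene from Salmon (0.8.2 in the submitters' processing notes) and tximport on mm10. These were whole numbers already, and rounding changed none. For the rRNA-depleted libraries the deposited counts per gene and transposable element came from STAR 2.27.10a on mm10 and TElocal, which divides reads with several positions. The strand setting is not given in the sources used here.

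Entrez identifiers were matched to symbols (99.8% of 24100 gene rows). Each kind of library was fitted alone, over 9 libraries, with edgeR 4.0.16 in R 4.3.3 (TMM, filterByExpr with a minimum count of 10, quasi-likelihood test), for each clone against WT and sg5 against sg6. The rRNA-depleted fit also held the transposable elements that passed the filter. Adjusted p-values are Benjamini-Hochberg over all features of a fit, and a call is an adjusted p below 0.05. The fits were tested on simulated data. A count of 0 was taken to allow 3 reads, for counting error only.

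Alternatives were DESeq2 1.42.0, median-of-ratios scaling, no filter, at least 10 counts in every library, the 2 compared groups alone, a replicate block, thinning to the smallest library, each library left out, and, for rRNA-depleted RNA, genes alone. Same-numbered libraries correlated above 0.1 in 3 of 3 pairs for sg5 with sg6 in polyA (0.277 to 0.373) and rRNA-depleted RNA (0.174 to 0.638). The same held for sg6 with WT in rRNA-depleted RNA (0.114 to 0.544). Blocked values stand beside those results where they change a call, and beside some polyA results against WT, where not all 3 correlations were above 0.1. In the order given, 6, 4 and 4 of 6 libraries correlated best with their own number. The match was full for sg5 with sg6 in polyA and partial in rRNA-depleted RNA. The rule does not show whether the libraries were prepared in pairs. No 2 libraries were identical.

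All 10 members, *Atrx* and, from each list, up to 6 genes that passed in both clones in the polyA libraries, ranked by the smaller change, are named. The members and lists were chosen with earlier results of these data known. Exon lengths and positions are from GENCODE vM21, promoters from RefSeq.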

Additional observations from a re-analysis of the deposited data

Results flagged for a closer look

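The clones differed from each other for *Fjx1* in the polyA libraries, where sg5 against sg6 gave a log2 difference of -1.14 (SE 0.27, adjusted p = 0.0470 by edgeR's quasi-likelihood test), with both clones above WT and 3 of 3 sg5 libraries below the sg6 libraries. In rRNA-depleted RNA the difference was -0.79 (SE 0.50, adjusted p = 0.744). *Thy1*, the mesenchymal marker that was low in WT, differed by -8.76 in polyA (adjusted p = 3.29e-08) and by -8.25 in rRNA-depleted RNA (adjusted p = 3.76e-07, both edgeR). Its polyA level was 0.997 ± 0.168 CPM for WT, 0.307 ± 0.0619 for sg5 and 134 ± 17.99 for sg6 (SD, n = 3).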

How the results depend on the processing

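In the polyA libraries the calls of *Tead1*, *Ccn1*, *Ccn2* and *Ankrd1* held in 9 of 9 fits that left out 1 library, in both clones. The counts of members passing ranged from 4 to 6 (sg5) and 5 to 6 (sg6) in such fits, and those past 2-fold from 2 to 3 in each. *Tead1* in sg5 missed the threshold when counts were thinned to the smallest library (adjusted p from 2.45e-05 to 0.0603 over its alternatives). The replicate block raised the sg6 count in polyA from 5 to 8, with *Wwtr1*, *Amotl2* and *Vgll3* added as higher. Past 2-fold it passed 1817 of all 15480 genes in that comparison, against 1730 without it. The share of all genes at adjusted p below 0.05 under the block is given only for sg6 in rRNA-depleted RNA. The other block counts cannot be read as particular to the members. For sg5 against sg6 in polyA, DESeq2 and the block each passed 1 member where the unblocked edgeR fit passed 0, also past 2-fold, and fits without 1 library passed 0.

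In rRNA-depleted RNA the sg5 count of 2 became 5 without the filter, 1 with at least 10 counts in every library, 5 under the block, 1 with the 2 groups alone, and 0 to 5 without 1 library. Past 2-fold the count of 1 became 2, 0 and 2 under the first 3, and 0 to 4 without 1 library. The sg6 count of 0 became 2 without the filter, 2 under the block, 1 with the 2 groups alone and 0 to 1 without 1 library, likewise past 2-fold. For sg5 against sg6 it was 1 without the filter, also past 2-fold, and 0 without any 1 library. The cause was not tested. Directions turned for small changes in this kind. *Amotl2* in sg6 was 0.017 with DESeq2 and with median-of-ratios scaling, 0.007 without the filter, 0.005 with the 2 groups alone and -0.185 to 0.125 without 1 library. Without 1 library *Amotl2* in sg5 ran from -0.272 to 0.071, *Yap1* in sg6 from -0.173 to 0.009, and *Vgll4* from -0.060 to 0.378 in sg5 and from -0.552 to 0.030 in sg6, and *Ccn3* in polyA of sg5 from -0.129 to 0.479.

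For sg5 with WT in both kinds and sg6 with WT in polyA, not all 3 same-numbered correlations were above 0.1. They ran from 0.026 to 0.264, -0.229 to 0.402 and 0.098 to 0.430, and 3, 4 and 6 of 6 libraries correlated best with their own number. Under the block 6 members passed for sg5 in polyA, with *Vgll3* added. Where all 3 correlations were above 0.1, the block changed no call of a member that the report does not give.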
